A study of Mus musculus with 18 samples.

Results

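Tbx1, Msc, Tcf21, Lhx2, Isl1, Six2, Eya1 and Tbx3 are transcription factors, or in the case of Eya1 a transcriptional coactivator, of the mesoderm that forms the muscles of the head and neck. They were chosen by name as 8 of the 22180 genes that the arrays measured, through the probe sets annotated with each symbol. All 8 were found, on 9 probe sets, because Msc has 2. Where a gene had several probe sets, the one with the highest mean over the 18 arrays was used. All 8 genes passed the filter on dim values (over the 40th percentile of an array's own values on at least 3 arrays), and 6 of the 8 passed a stricter one at the 60th percentile.

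Muscles of the jaw and pharynx arise from pharyngeal arch mesoderm rather than from somites, and their progenitors use regulators other than the Pax3 route of trunk muscle. In mouse embryos Tbx1, a T-box factor, is required for the formation of many of these branchiomeric muscles. Msc (musculin, also called MyoR) and Tcf21 (capsulin) are basic helix-loop-helix factors that together are needed for the muscles of mastication. Isl1 and Lhx2 are LIM homeodomain factors of pharyngeal mesoderm, Six2 is a homeodomain factor of the sine oculis type, Eya1 is a phosphatase and coactivator that works with such factors, and Tbx3 is a T-box repressor.

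The series measured total RNA of cells sorted by flow cytometry from mice that carry aP2-Cre, a Cre recombinase under the Fabp4 (aP2) promoter, and a tdTomato reporter. In 3 of the 5 populations the cells came from tumors, in mice whose genotype added SmoM2, an activated form of the Hedgehog signal transducer Smoothened (aP2-Cre/+;tdTomato/+;SmoM2/+, strain BJ;SJL;B6.129). These were Tom+/Pecam1+ cells, Tom+/Pecam1- cells and Tom-/Pecam1- cells, each with 4 arrays, of which repeats 1 to 3 came from mice at postnatal day 48 and repeat 4 at day 38. The other populations were Tom+ and Tom- cells of sternocleidomastoid muscle, a neck muscle, of aP2-Cre/+;tdTomato/+ mice at postnatal day 21, strain B6;SJL, each with 3 arrays (1 Tom+ sample is labelled aP2-Cre/+;tdTomato). Cre and the tdTomato reporter were thus shared by every group, and muscle cells were not sorted on Pecam1. The Tom mark records that the promoter was active in a cell or its ancestors, whatever cell type it is now. Tissue, SmoM2 genotype, age and strain differ together between tumor and muscle, so their parts in any tumor-to-muscle difference cannot be told apart.

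Values are log2 intensities of a normalized table. Array medians were 5.04 to 5.10 in muscle and 5.41 to 5.44 in tumor, and for every comparison an array's median was first subtracted from its values and the mean of all 18 medians added back (centred values). The mean over the 3 tumor populations of a repeat was the same for all 4 repeats at every probe set, within 7.67e-05 log2. The tumor values therefore hold no variation between tumors that the populations share, and the spread and p-values of tumor groups leave it out. The fit gives all populations the same estimate of the spread, so p-values of muscle comparisons draw on the tumor arrays as well. The 3 muscle repeat means differed by a median of 0.25 log2 over probe sets. A list of 17 measured salivary gland genes averaged 5.70, 5.51 and 4.43 in muscle Tom+ repeats 1 to 3 and 7.39, 5.36 and 4.45 in muscle Tom- repeats 1 to 3, against 3.86 to 4.11 in all tumor arrays. Results that used muscle were therefore also computed with muscle repeat 3 alone, which leaves 1 array in each muscle group. Its adjusted p-values assume that this array varies like the tumor arrays, and calls lost there may reflect fewer arrays. The endothelial list (15 genes) averaged 10.1 to 10.7 in tumor Tom+/Pecam1+ arrays and 10.4 to 10.5 in muscle Tom+ arrays, against 5.92 to 7.18 in the other 3 populations. Labels do not say whether samples of a group came from separate animals, so p-values measure only the spread between these samples. In sorted pools, fewer cells that express a gene and less RNA per cell cannot be told apart.

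The promoter windows of the genes that were higher in marked tumor cells and have an entry in the RefSeq table are shown because a helix-loop-helix factor such as Tcf21 or Msc binds the E-box, CANNTG, and because Gli factors, the transcriptional effectors of Smoothened, bind GACCACCC. Each runs from 250 bases before to 50 bases after an annotated start (GRCm38.p6, minus strand for all of them, 5′ to 3′), and capitals mark an E-box.
Tcf21, chr10:22820094-22820393: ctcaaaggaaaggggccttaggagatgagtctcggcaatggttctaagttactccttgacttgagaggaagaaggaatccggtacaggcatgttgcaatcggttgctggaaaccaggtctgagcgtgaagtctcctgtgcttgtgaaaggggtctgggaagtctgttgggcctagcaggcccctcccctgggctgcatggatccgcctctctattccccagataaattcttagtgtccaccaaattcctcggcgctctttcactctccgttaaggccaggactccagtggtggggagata
Tbx1, upstream start, chr16:18590622-18590921: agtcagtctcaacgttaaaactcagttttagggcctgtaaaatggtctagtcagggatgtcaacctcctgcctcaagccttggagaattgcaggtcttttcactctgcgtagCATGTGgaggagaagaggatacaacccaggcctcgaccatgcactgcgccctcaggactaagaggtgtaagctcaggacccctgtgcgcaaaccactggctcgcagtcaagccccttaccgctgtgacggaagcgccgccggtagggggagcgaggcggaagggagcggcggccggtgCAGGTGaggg
Tbx1, downstream start, chr16:18588850-18589149: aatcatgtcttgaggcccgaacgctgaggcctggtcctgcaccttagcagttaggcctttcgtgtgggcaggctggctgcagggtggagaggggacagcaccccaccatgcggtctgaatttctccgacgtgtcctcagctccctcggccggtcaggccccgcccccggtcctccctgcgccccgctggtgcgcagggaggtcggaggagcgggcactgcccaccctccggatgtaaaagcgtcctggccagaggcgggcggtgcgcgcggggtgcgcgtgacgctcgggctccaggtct
Isl1, chr13:116309639-116309938: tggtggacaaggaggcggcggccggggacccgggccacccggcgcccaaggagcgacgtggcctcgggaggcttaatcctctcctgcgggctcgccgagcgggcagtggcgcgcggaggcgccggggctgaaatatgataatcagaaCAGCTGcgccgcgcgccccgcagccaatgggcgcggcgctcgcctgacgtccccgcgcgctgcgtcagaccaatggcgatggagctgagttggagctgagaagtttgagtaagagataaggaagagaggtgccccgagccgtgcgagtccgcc

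Isl1 held 1 E-box, CAGCTG, and the window at the upstream Tbx1 start held 2, CATGTG and CAGGTG. The Tcf21 window and the other Tbx1 window held none. Of all 32851 mouse windows of this length, 72.3% held at least 1 CANNTG, which reads the same on both strands. GACCACCC, searched on both strands, was in 0.807% of all windows and in 0 of the 7 windows that 5 of the 8 genes had. The guanine and cytosine share was 53.3% for Tcf21, 58.3% and 69% for Tbx1 and 69% for Isl1, against a median of 52.7% over all windows. These are letter matches in short windows, with no binding measured. No entry was used for Msc, Eya1 or Tbx3.

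The 8 genes followed no common pattern over the 5 populations. Tcf21, Tbx1, Tbx3 and Isl1 had their highest means in tumor Tom+/Pecam1- cells. In each of these 4 genes every array of that population was above every array of the next. How many of all genes separate in this way was not counted. Neither this separation nor those given below for single genes can therefore be called a trait of the 8. Msc, Six2 and Lhx2 had their highest means in muscle Tom- cells, and Eya1 in muscle Tom+ cells.

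**Figure D1:**
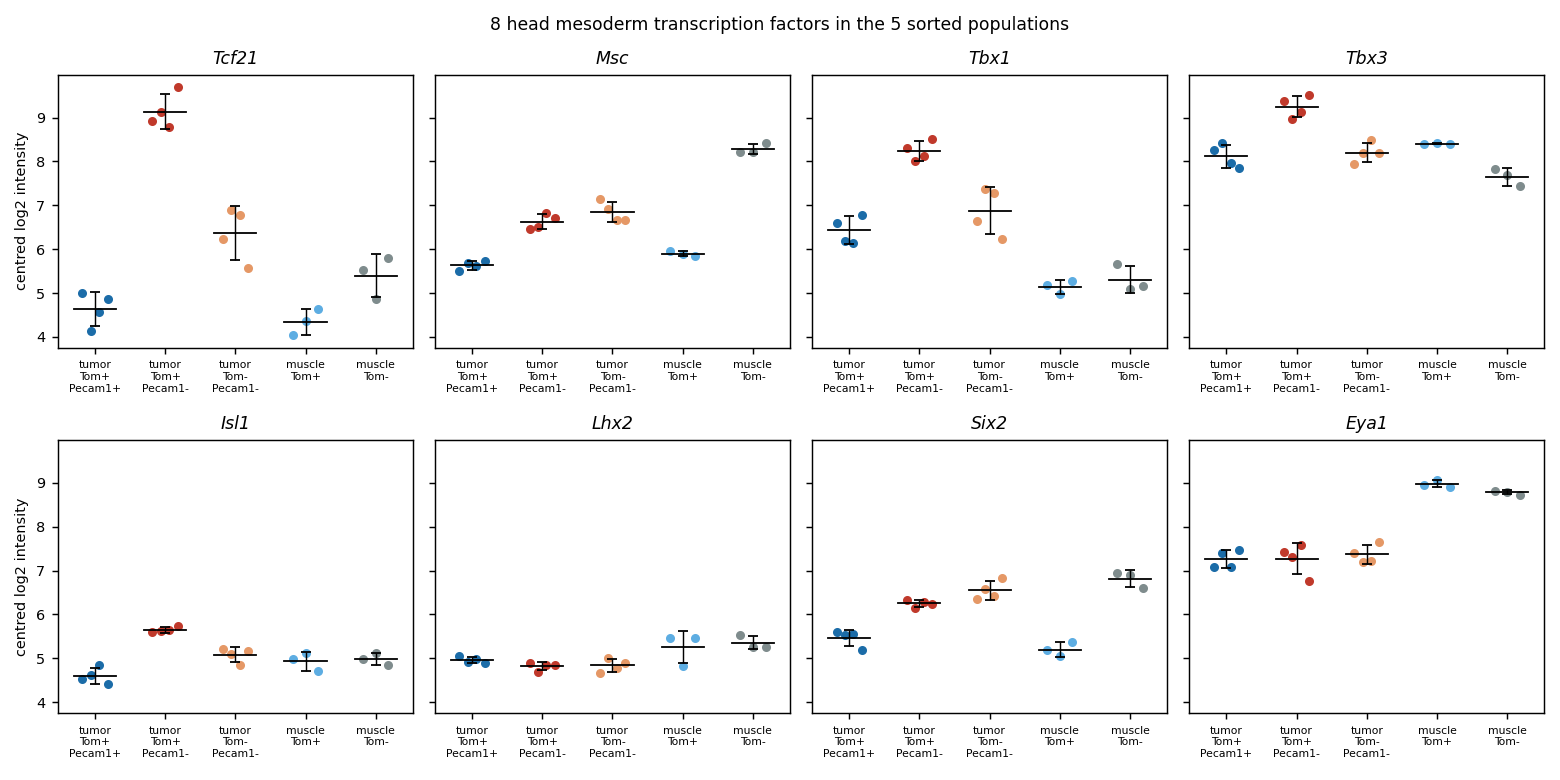
Centred log2 intensity (vertical axis, 1 scale for all panels) of the 8 genes in the 5 sorted populations (horizontal axis). Points are arrays, the long bar is the mean and the error bar 1 SD (n = 4 for tumor, n = 3 for muscle). Tcf21 reached 8.79 to 9.70 in tumor Tom+/Pecam1- arrays and at most 6.90 in any other array. Levels of different genes come from different probes and are not comparable.

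Tcf21 had the widest range of the 8. It measured 8.93, 9.12, 8.79 and 9.70 in tumor Tom+/Pecam1- repeats 1 to 4 and 6.23, 6.90, 6.77 and 5.57 in tumor Tom-/Pecam1- repeats 1 to 4. The groups did not overlap: the marked cells averaged 9.13 ± 0.40 and the unmarked cells 6.37 ± 0.61 (SD, n = 4 each), a log2 difference of 2.77, or 6.8-fold (limma, Benjamini-Hochberg adjusted p = 6.09e-06). In tumor Tom+/Pecam1+ cells it measured 4.99, 4.12, 4.57 and 4.86, which passed an array's 40th percentile on 2 of 4 arrays. Between those endothelial-marked cells and the Tom+/Pecam1- cells the log2 difference was -4.50, or 22.6-fold (adjusted p = 7.58e-10). In muscle it measured 4.04, 4.36 and 4.63 in Tom+ cells, where 0 of 3 arrays passed the 40th percentile, and 5.51, 4.85 and 5.81 in Tom- cells. Tcf21 was thus lower in Tom+ than in Tom- cells of muscle, by a log2 difference of -1.05 (adjusted p = 0.0178, or 0.0456 with repeat number added to the limma fit). The deposited values carry no detection calls, so a difference against arrays that are all under the 40th percentile is the fitted value and its size is uncertain. That muscle call was lost when Tom+ repeat 1 (adjusted p = 0.0718), Tom- repeat 1 (0.0544) or Tom- repeat 3 (0.0882) was left out, and with repeat 3 alone (-1.18, adjusted p = 0.186).

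Tbx1 was also highest in the marked Pecam1- tumor cells, and it was higher in tumor than in muscle in every population compared. It measured 8.30, 7.999, 8.12 and 8.52 in tumor Tom+/Pecam1- cells and 6.64, 7.37, 7.27 and 6.23 in tumor Tom-/Pecam1- cells. Those 2 groups did not overlap and differed by 1.36 log2, or 2.56-fold (limma, adjusted p = 0.000322). Tumor Tom+/Pecam1+ cells, at 6.61, 6.18, 6.14 and 6.79, overlapped the unmarked tumor cells and were below the Tom+/Pecam1- cells (log2 difference -1.81, adjusted p = 3.3e-06). In muscle the 6 arrays lay between 4.97 and 5.66, below every tumor array. Its Tom+ cells (5.17, 4.97 and 5.28) and Tom- cells (5.66, 5.09 and 5.16) overlapped, with a log2 difference of -0.16 (95% interval -0.70 to 0.39, adjusted p = 0.676).

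Tbx3 was higher in Tom+/Pecam1- than in Tom-/Pecam1- cells of tumor and in Tom+ than in Tom- cells of muscle. Its arrays gave 9.37, 8.97, 9.13 and 9.52 in tumor Tom+/Pecam1- cells, 7.94, 8.19, 8.48 and 8.19 in tumor Tom-/Pecam1- cells and 8.27, 8.41, 7.96 and 7.85 in tumor Tom+/Pecam1+ cells. The marked Pecam1- cells were above the unmarked cells by 1.05 log2 (limma, adjusted p = 8.54e-05). The Tom+/Pecam1+ cells were below the Tom+/Pecam1- cells (log2 difference -1.13, adjusted p = 6.23e-06). In muscle it measured 8.40, 8.42 and 8.39 in Tom+ cells and 7.82, 7.70 and 7.43 in Tom- cells, without overlap, and was higher in Tom+ cells by 0.75 log2 (adjusted p = 0.00176). Tbx3 was the single gene of the 8 called higher in both of these comparisons, although the other marked tumor population, Tom+/Pecam1+, averaged 8.12 ± 0.26 and overlapped the unmarked tumor cells at 8.20 ± 0.22 (SD, n = 4 each).

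Isl1 was dim throughout, between 4.41 and 5.74 on all 18 arrays. It measured 5.60, 5.62, 5.64 and 5.74 in tumor Tom+/Pecam1- cells and 5.22, 5.10, 4.84 and 5.18 in tumor Tom-/Pecam1- cells, with no overlap and a log2 difference of 0.56 (limma, adjusted p = 0.00161). Tumor Tom+/Pecam1+ cells were lower still, at 4.53, 4.62, 4.85 and 4.41, with a log2 difference of -1.05 from the Tom+/Pecam1- cells (adjusted p = 7.23e-07). Muscle Tom+ cells (4.98, 5.12 and 4.70) and muscle Tom- cells (4.99, 5.11 and 4.86) overlapped. Their log2 difference was -0.05 (95% interval -0.33 to 0.23, adjusted p = 0.791).

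Msc did not follow Tcf21, its partner in jaw muscle. It was highest in muscle Tom- cells, at 8.22, 8.21 and 8.42, against 5.96, 5.89 and 5.84 in muscle Tom+ cells (values of the Tom+ cells averaged 5.90 ± 0.06 and of the Tom- cells 8.28 ± 0.12, SD, n = 3 each). This was the largest change of the 8 genes in muscle, a log2 difference of -2.39 (limma, adjusted p = 1.76e-10). In tumor, Tom+/Pecam1- cells measured 6.47, 6.51, 6.82 and 6.71 and Tom-/Pecam1- cells 7.15, 6.91, 6.67 and 6.66. These overlapped, with a log2 difference of -0.22 (95% interval -0.46 to 0.02, adjusted p = 0.168). Tumor Tom+/Pecam1+ cells, at 5.49, 5.69, 5.61 and 5.72, were below the Tom+/Pecam1- cells (log2 difference -0.997, adjusted p = 1.05e-06). The second Msc probe set was dim, 3.69 to 6.19 over all arrays, and was also highest in muscle Tom- cells (5.58, 5.53 and 6.19). It differed otherwise: its muscle Tom+ cells (5.20, 5.35 and 4.90) were closer to the Tom- cells. They lay mostly above its tumor Tom-/Pecam1- cells (4.62, 4.52, 4.41 and 4.96), the reverse of the first probe set.

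Six2 had the same order as Msc in muscle. It measured 5.18, 5.05 and 5.37 in muscle Tom+ cells and 6.95, 6.90 and 6.59 in muscle Tom- cells, a log2 difference of -1.61 (limma, adjusted p = 5.32e-08). In tumor, Tom+/Pecam1- cells gave 6.34, 6.15, 6.28 and 6.23 and Tom-/Pecam1- cells 6.36, 6.59, 6.42 and 6.83. The tumor groups did not overlap but the log2 difference of -0.30 did not pass (95% interval -0.55 to -0.04, adjusted p = 0.0831). Tumor Tom+/Pecam1+ cells measured 5.59, 5.53, 5.56 and 5.20, below the Tom+/Pecam1- cells (log2 difference -0.78, adjusted p = 4.19e-05).

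Eya1 was higher on every muscle array than on any tumor array. It measured 8.96, 9.07 and 8.92 in muscle Tom+ cells and 8.82, 8.80 and 8.73 in muscle Tom- cells, while the 12 tumor arrays lay between 6.76 and 7.66. The mark made a log2 difference of -0.10 in tumor (95% interval -0.42 to 0.22, adjusted p = 0.679) and of 0.20 in muscle (95% interval -0.17 to 0.57, adjusted p = 0.409), by limma. The muscle groups did not overlap although the test did not pass, and the tumor groups overlapped. Tumor Tom+/Pecam1+ and Tom+/Pecam1- cells averaged 7.26 ± 0.20 and 7.27 ± 0.36 (SD, n = 4 each). Klk13 and Krt6b, with profiles among the nearest to Eya1, took a like step. Population means of Klk13 were 5.14 to 5.17 in muscle and 3.78 to 3.95 in tumor, and those of Krt6b 5.38 to 5.41 and 4.06 to 4.09. Whether the step of Eya1 belongs to the cells or to how muscle and tumor arrays were made and normalized was not tested. Lhx2 stayed between 4.67 and 5.54 on all arrays, and neither the mark nor Pecam1 made a difference that passed. Its log2 differences were -0.02 for the mark in tumor (95% interval -0.28 to 0.25, adjusted p = 0.948), -0.11 for the mark in muscle (-0.41 to 0.20, adjusted p = 0.608) and 0.14 for Pecam1 in tumor (-0.13 to 0.40, adjusted p = 0.402).

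Counted together, 4 of the 8 genes were higher and 0 lower in Tom+/Pecam1- than in Tom-/Pecam1- tumor cells, against 13.2% of all 16011 tested genes higher and 11.8% lower. The members' median log2 difference was 0.27, and that of all genes 0.03. In muscle 1 of the 8 was higher and 3 were lower in Tom+ than in Tom- cells, where 19.5% of all genes were higher and 19.8% lower. The members' median log2 difference there was -0.13, and that of all genes 0.01. Between Tom+/Pecam1+ and Tom+/Pecam1- tumor cells, 0 were higher and 6 lower, against 20.1% and 24% of all genes, with a median of -1.02 for the members and -0.01 for all genes. The mark and Pecam1 comparisons of tumor share the Tom+/Pecam1- arrays. The 8 genes were chosen with earlier results of these data known. These counts and those below therefore describe the 8 and are no test of them as a set.

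**Figure D2:**
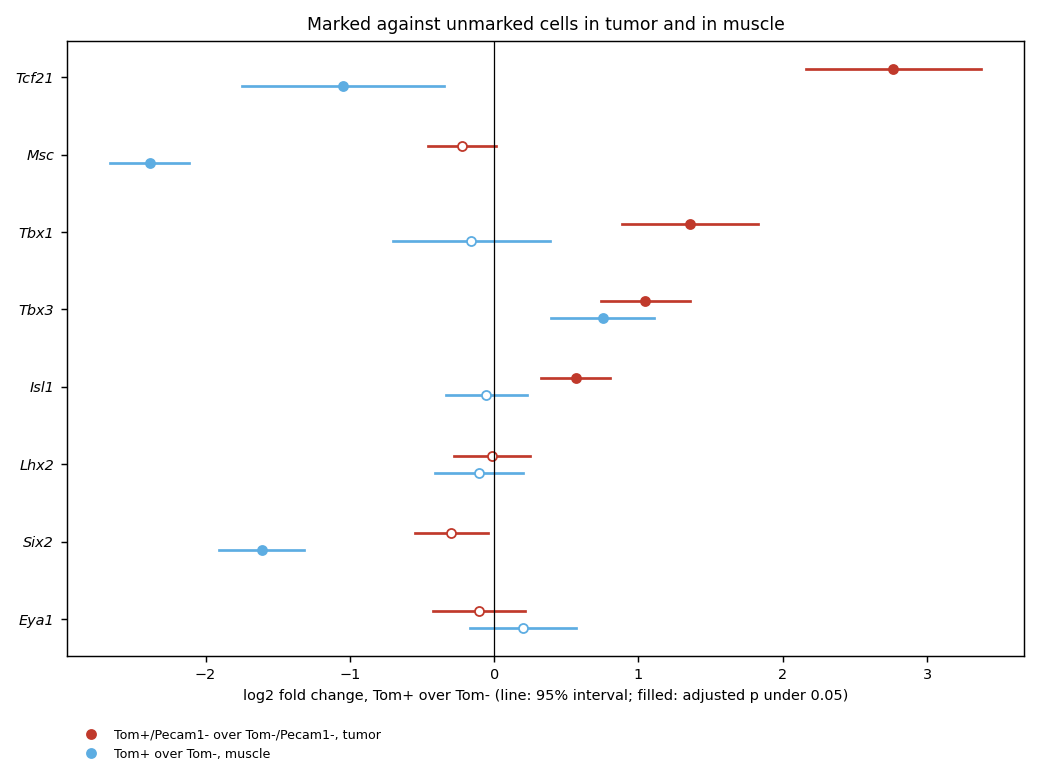
Log2 fold change of Tom+ over Tom- cells (horizontal axis, centred values) for the 8 genes in tumor (Pecam1- cells, red) and muscle (blue). Lines are 95% intervals and filled points passed an adjusted p of 0.05. Tcf21 lies at 2.77 in tumor and -1.05 in muscle, Msc at -0.22 in tumor and -2.39 in muscle, and Tbx3 above 0 in both.

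Whether the mark made a different difference in tumor than in muscle was tested directly, as the tumor log2 difference minus the muscle one. Of the 8 genes, 5 passed with a more positive tumor value and 0 with a more negative one, against 20.5% and 18.5% of all genes (median 0.97 for the members, 0.00 for all). Tcf21 gave 3.82 (95% interval 2.89 to 4.74, limma adjusted p = 2.34e-06), a size that includes the muscle Tom+ arrays under the 40th percentile. Msc gave 2.16 (adjusted p = 3.26e-08), Tbx1 with 1.52 (adjusted p = 0.00191), Six2 with 1.31 (adjusted p = 2.08e-05) and Isl1 with 0.62 (adjusted p = 0.00954). For Msc and Six2 the value comes from a large negative difference in muscle beside a small one in tumor, and for Tbx1 and Isl1 from a positive difference in tumor beside a small one in muscle. Tbx3 (0.30, adjusted p = 0.321), Eya1 (-0.30, adjusted p = 0.327) and Lhx2 (0.09, 95% interval -0.31 to 0.50) did not pass. With muscle repeat 3 alone the Tbx1 value was 1.24 and lost its call (adjusted p = 0.119), and the other 4 calls held.

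The cells under the mark differed between the tissues. Muscle Tom+ cells were sorted with no Pecam1 gate and read as endothelial: 15 of 15 endothelial markers were higher in them than in Tom- cells, while 13 of 14 fibro-adipogenic markers, 12 of 12 myogenic progenitor markers and 8 of 8 tenocyte markers were lower. The fibro-adipogenic list averaged 6.004 to 6.45 in muscle Tom+ and 10.2 to 10.5 in muscle Tom- arrays. The myogenic progenitor list averaged 5.38 to 5.77 in muscle Tom+ and 8.60 to 8.67 in muscle Tom- arrays. In tumor, the Tom+/Pecam1- cells had 7 of 12 myogenic progenitor markers higher and 1 lower than the Tom-/Pecam1- cells, with list levels of 7.64 to 7.95 and 6.81 to 7.43. All 13 leukocyte markers were lower in them, at 7.05 to 7.50 against 9.21 to 10.03, as were 6 of 8 tenocyte markers, at 6.78 to 7.63 against 8.92 to 9.38. Of the fibro-adipogenic markers 0 were higher and 5 of 14 lower, at 9.35 to 9.78 against 10.1 to 10.2. What part these cell mixtures had in the values of the 8 genes was not tested.

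**Figure D3:**
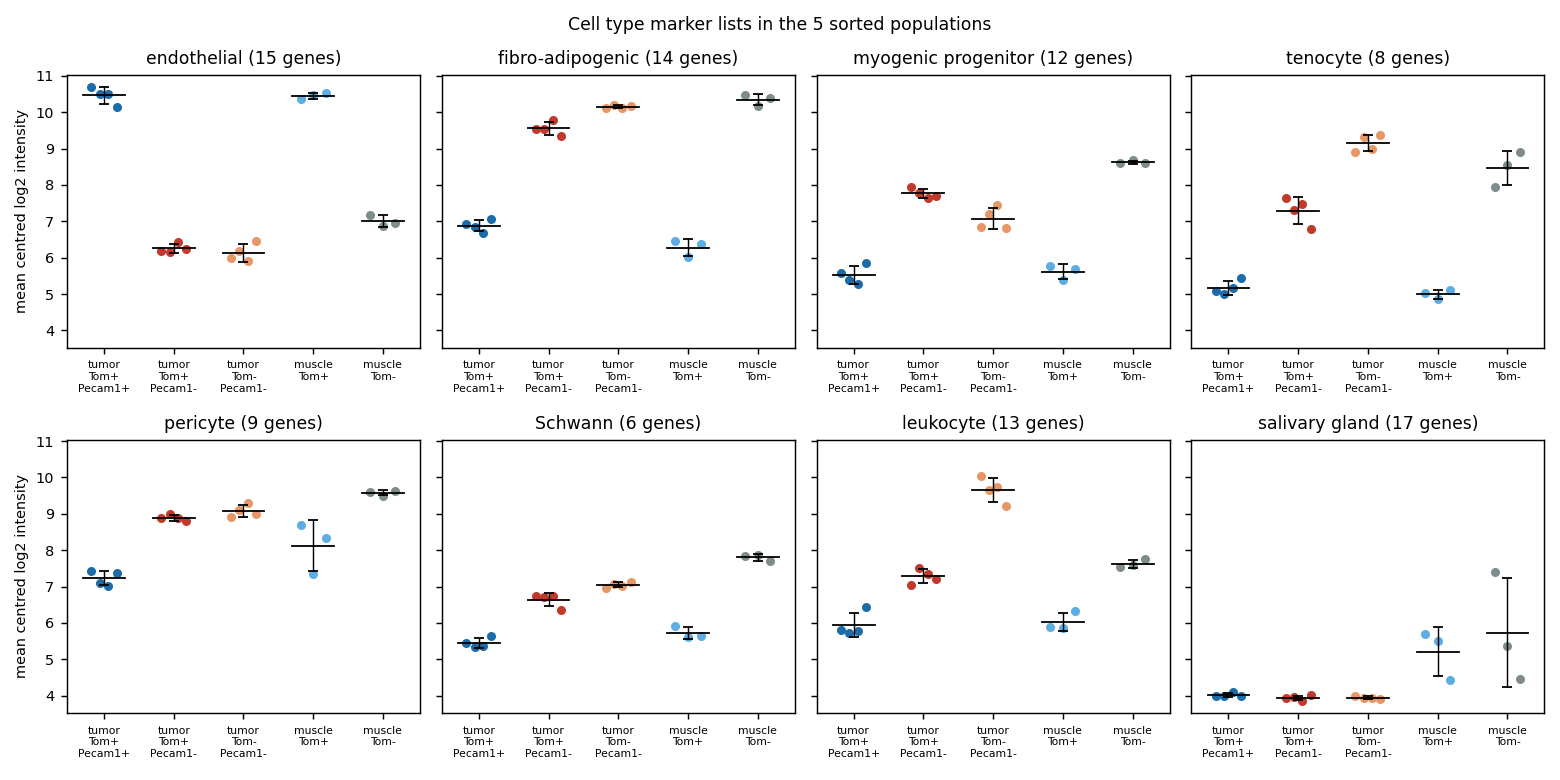
Mean centred log2 intensity (vertical axis) of 8 cell type marker lists in the 5 populations (horizontal axis). Points are arrays, the long bar is the mean and the error bar 1 SD. The endothelial list is at 10.1 to 10.7 in both Tom+ populations that hold endothelial cells, and the salivary gland list is at 7.39 in muscle Tom- repeat 1 and 4.45 in muscle Tom- repeat 3.

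Against muscle, the marked Pecam1- tumor cells differed in all 8 genes. Compared with muscle Tom- cells, the Pecam1-poor muscle population, 4 were higher and 4 lower, where 24.1% of all genes were higher and 23% lower. The members' median log2 difference was 0.06, and that of all genes 0.01. Tcf21 averaged 9.13 ± 0.40 in the tumor cells (SD, n = 4) and 5.39 ± 0.49 in muscle Tom- cells (SD, n = 3), a log2 difference of 3.74, or 13.4-fold (limma, adjusted p = 6.43e-08). Tbx1 averaged 8.23 ± 0.23 in the tumor cells and 5.30 ± 0.31 in muscle Tom- cells, a log2 difference of 2.93, or 7.64-fold (adjusted p = 5.99e-08). Tbx3 was higher by 1.60 (adjusted p = 4.9e-07) and Isl1 by 0.66 (adjusted p = 0.000339). Msc was lower in the tumor cells (log2 difference -1.66, adjusted p = 1.45e-08), as were Eya1 (-1.51, adjusted p = 1.23e-06), Six2 (-0.56, adjusted p = 0.00204) and Lhx2 (-0.53, adjusted p = 0.00402). All 8 genes were also called under quantile normalization. The calls of Six2 and Lhx2 rested on putting the muscle and tumor arrays on 1 level. On the values as deposited they were -0.23 (adjusted p = 0.137) and -0.20 (adjusted p = 0.21), and Six2 was also lost with muscle repeat 3 alone (-0.34, adjusted p = 0.18). Pecam1 itself averaged 6.99 in the tumor cells and 8.33 in the muscle Tom- cells, which were not gated on it.

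The unmarked tumor cells, compared with the same muscle Tom- arrays, showed Tbx1, Tcf21 and Tbx3 higher as well, each by less than in the marked cells, the gap being the tested Tom+ to Tom- difference in tumor above. Here 3 of the 8 were higher and 3 lower, against 23.8% and 24.9% of all genes (median -0.08 for the members, -0.02 for all). Tbx1 was higher by 1.58 (limma, adjusted p = 5.25e-05), Tcf21 by 0.98 (adjusted p = 0.0155) and Tbx3 by 0.55 (adjusted p = 0.00907). Msc (-1.43, adjusted p = 1.03e-07), Eya1 (-1.41, adjusted p = 2.94e-06) and Lhx2 (-0.52, adjusted p = 0.00477) were lower. Isl1 (0.10, 95% interval -0.16 to 0.36) and Six2 (-0.26, 95% interval -0.54 to 0.01) did not pass. The Tcf21 call was lost without muscle Tom- repeat 2 (adjusted p = 0.099), without tumor repeat 2 (0.0526) and with muscle repeat 3 alone (0.56, adjusted p = 0.379). The Tbx3 call was lost without muscle Tom- repeat 3 (adjusted p = 0.056), and Lhx2 on the values as deposited (-0.18, adjusted p = 0.259). Six2 passed without muscle Tom- repeat 3 (adjusted p = 0.0415) and without tumor repeat 4 (adjusted p = 0.0303), and Isl1 on the values as deposited (0.43, adjusted p = 0.00818).

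Between the Tom+ populations that read as endothelial, tumor Tom+/Pecam1+ cells and muscle Tom+ cells, 1 of the 8 was higher and 2 were lower, against 15.7% and 18.5% of all genes (median -0.27 for the members, -0.03 for all). Of 15 endothelial markers 1 was higher and 1 lower in the tumor cells. Other lists differed: 7 of 14 fibro-adipogenic markers were higher and 0 lower. Lower were 5 of 9 pericyte and 6 of 10 salivary gland markers, with 0 higher. What part this had in the 8 genes was not tested. Tbx1 averaged 6.43 ± 0.32 in tumor (SD, n = 4) and 5.14 ± 0.16 in muscle (SD, n = 3), higher by 1.29 (limma, adjusted p = 0.000657). With muscle repeat 3 alone it was 1.15 with an adjusted p of 0.0569. Eya1 was lower in the tumor cells (log2 difference -1.72, adjusted p = 9.47e-07). Isl1 was marginal at -0.33 (adjusted p = 0.047): on the values as deposited it was 0.02 (adjusted p = 0.892), and it lost its call when any of 5 of the 7 arrays was left out. Tcf21 was at or near the dim end in both, with a difference of 0.30 (95% interval -0.36 to 0.95, adjusted p = 0.489). Six2 (0.27, adjusted p = 0.122), Msc (-0.27, adjusted p = 0.102), Lhx2 (-0.29, adjusted p = 0.113) and Tbx3 (-0.28, adjusted p = 0.186) did not pass. Six2 passed on the values as deposited (0.62, adjusted p = 0.000758) and without tumor repeat 4 (adjusted p = 0.042), Msc when its probe sets were averaged (-0.59, adjusted p = 0.00263), and Lhx2 without muscle Tom+ repeat 2 (-0.50, adjusted p = 0.00382) and with muscle repeat 3 alone (-0.50, adjusted p = 0.0266).

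**Figure D4:**
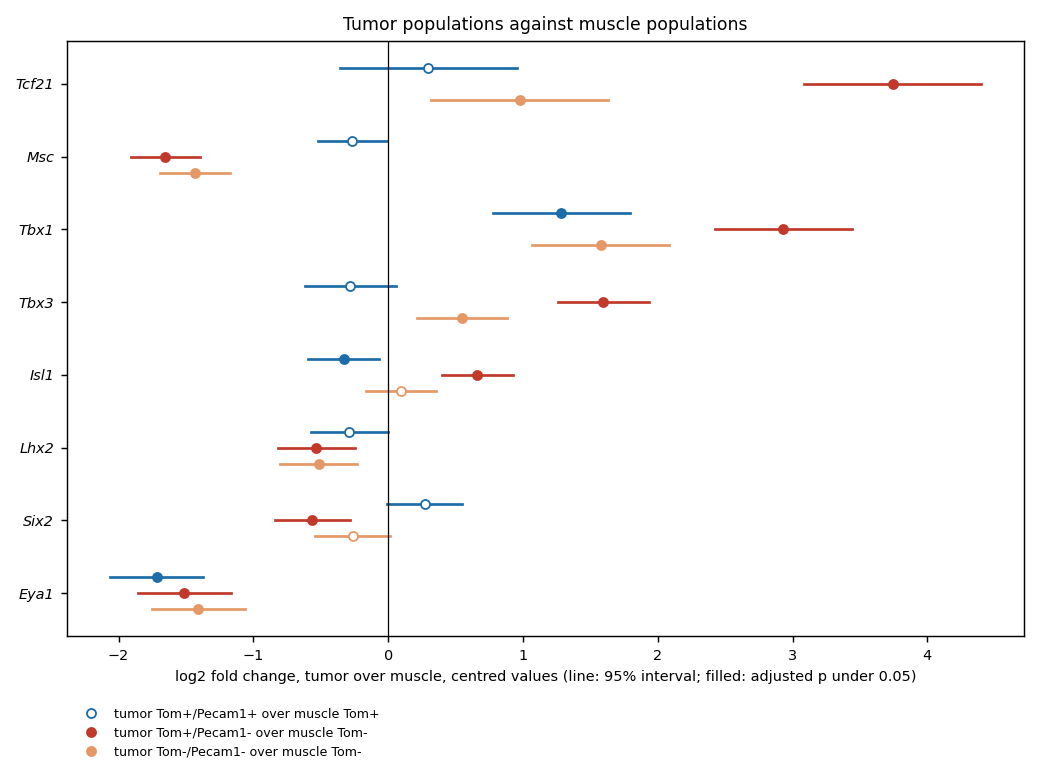
Log2 fold change of tumor over muscle (horizontal axis, centred values) for the 8 genes in 3 pairs of populations. Lines are 95% intervals and filled points passed an adjusted p of 0.05. Tbx1 lies above 0 and Eya1 below 0 in all 3 pairs, and Tcf21 reaches 3.74 in Tom+/Pecam1- cells. The red and orange pairs share the muscle Tom- arrays.

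Genes related to the 8 were counted in lists drawn up for the same families and networks, beside the 13.2% of all genes that were higher and 11.8% that were lower in Tom+/Pecam1- (marked) than in Tom-/Pecam1- tumor cells. The lists, like the 8 genes, were chosen with earlier results of these data known, so their counts are descriptions. Of 11 tested T-box relatives, 5 were higher and 1 lower in Tom+/Pecam1- than in Tom-/Pecam1- tumor cells. They included Tbx20, a cardiac T-box factor (0.91 log2, limma adjusted p = 0.000549), Tbx2 (0.80, adjusted p = 0.00151), the closest relative of Tbx3, and the limb factor Tbx4 (0.60, adjusted p = 0.00392). Tbx20 passed the 40th percentile on 0 of 6 muscle arrays and on all 12 tumor arrays, and was higher by 3.37 in the tumor Tom+/Pecam1- cells than in muscle Tom- cells (adjusted p = 3.92e-10), a fitted value of uncertain size because of those dim muscle arrays. Of the 7 tested relatives of Six2 and Eya1, Dach genes included, 4 were higher and 1 lower in the marked tumor cells. Dach1, a corepressor of the same network, was higher by 1.05 (adjusted p = 0.00107) Eya4 by 1.21 (adjusted p = 0.00182), Six5 by 0.68 (adjusted p = 0.00178) and Six4 by 0.42 (adjusted p = 0.0322), while Eya2 was lower (-0.83, adjusted p = 0.00497). Eya1, by contrast, gave -0.10 in the same comparison. Eya4 lay between 8.99 and 9.16 in tumor Tom+/Pecam1- arrays and between 7.38 and 8.62 in tumor Tom-/Pecam1- arrays.

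Of 9 tested LIM homeobox relatives and cofactors, Lmo4 was higher (0.42, limma adjusted p = 0.0145) and Lmo2 lower (-0.73, adjusted p = 0.000778) in the marked tumor cells. Of 7 tested helix-loop-helix relatives of Tcf21 and Msc, 0 were higher and 3 lower, namely Tcf15 (-0.72, adjusted p = 0.000561), Hand2 (-0.40, adjusted p = 0.0182) and Twist1 (-0.80, adjusted p = 0.0202). Of 18 tested genes of a head and second heart field list, 4 were higher and 2 lower. The signalling ligand Wnt5a (1.54, adjusted p = 7.44e-05) and the cardiac homeodomain factor Nkx2-5 (0.83, adjusted p = 0.000751) were higher, and Ebf2 was lower (-1.37, adjusted p = 0.00123). Of 9 genes of a list drawn up for trunk muscle, 3 were higher and 1 lower. Met, a receptor of migrating muscle progenitors (1.19, adjusted p = 0.00398), and Lbx1 (0.42, adjusted p = 0.00768) were higher and Meox2 lower (-0.73, adjusted p = 0.0006). The other higher gene was Foxf1 (1.38, adjusted p = 0.000752), which the list holds although it is not specific to skeletal muscle. Pax3 gave -0.14 (adjusted p = 0.389). The 4 muscle regulatory factors Myf5, Myod1, Myog and Myf6 and the satellite cell factor Pax7 were all higher in the marked tumor cells, by 1.68, 1.23, 1.52, 1.55 and 1.66 (adjusted p = 0.00133 at most).

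The same lists were counted in muscle, where 19.5% of all genes were higher and 19.8% lower, and no difference between the tissues was tested for a list. In Tom+ against Tom- muscle cells, 1 of 11 T-box relatives was higher and 4 were lower, with Tbx15 at -1.80 (limma, adjusted p = 7.78e-08) and Tbx4 at -1.30 (adjusted p = 3.49e-06). Tbx18 (-0.64, adjusted p = 0.00195) and Tbx2 (-0.78, adjusted p = 0.00249) were the other lower ones and Tbx10 the higher one (0.27, adjusted p = 0.0307). Of the relatives of Six2 and Eya1, 1 of 7 was higher and 4 were lower. Dach1 was higher by 4.39 (adjusted p = 1.28e-10), and Eya4 (-3.72, adjusted p = 1.39e-08), Six4 (-0.94, adjusted p = 0.000112), Eya2 (-0.96, adjusted p = 0.00277) and Six5 (-0.44, adjusted p = 0.0413) were lower. Eya4 passed the 40th percentile on 0 of 3 muscle Tom+ arrays, so the size of its difference is uncertain too. All 5 muscle regulatory genes were lower, with Pax7 at -2.92 (adjusted p = 6.84e-06), and 0 were higher. Of the head and second heart field list 4 of 18 were higher and 2 lower, of the trunk list 2 of 9 and 1, of the LIM list 4 of 9 and 1, and of the helix-loop-helix list 1 of 7 and 2. Against muscle Tom- cells, the tumor Tom+/Pecam1- cells had 1 of the 5 muscle regulatory genes higher, Myf6 (1.81, adjusted p = 3.78e-08), and 1 lower, Myog (-0.98, adjusted p = 0.0169). Pax7 gave 0.35 (adjusted p = 0.445) and Myod1 0.10 (adjusted p = 0.768), and Myf5 did not pass either. Of the 12 myogenic progenitor markers, 2 were higher and 4 lower in the tumor cells, at list levels of 7.64 to 7.95 in tumor Tom+/Pecam1- and 8.60 to 8.67 in muscle Tom- arrays.

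The genes whose profiles lay nearest to each of the 8 were found by the root mean square difference over the 18 arrays, after taking each gene's own mean away. Nearest to Tcf21 was Gli1, the transcription factor induced by Hedgehog signalling, at 0.43 log2, followed by Tmem171 at 0.52 and the secreted inhibitor Sostdc1 at 0.57, where Tcf21 itself varied by 1.81 about its mean. Gli1 averaged 9.11 ± 0.53 in tumor Tom+/Pecam1- cells and 7.11 ± 0.56 in tumor Tom-/Pecam1- cells (SD, n = 4 each), and 5.28 in tumor Tom+/Pecam1+ cells. It averaged 5.24 in muscle Tom+ and 6.25 in muscle Tom- cells. Nearest to Tbx1 (1.16 about its mean) were Scube1 at 0.24, Gpld1 at 0.26 and the protocadherin Pcdhb2 at 0.35. Nearest to Msc (0.89) were Cmtm5 at 0.21, the phosphatase Dusp10 at 0.23 and Mamdc2 at 0.25. Nearest to Six2 (0.61) were Dagla, Flna and Ndn at 0.19 to 0.21, to Tbx3 (0.56) Pcdhb16, Fam78b and Nav1 at 0.21 to 0.25, and to Eya1 (0.77) Klk13, Krt6b and Vmn1r9 at 0.25 to 0.27. Nearness is a description of these 18 arrays, which fall into 5 populations, and the dim genes Lhx2 and Isl1 have near profiles of little variation.

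**Figure D5:**
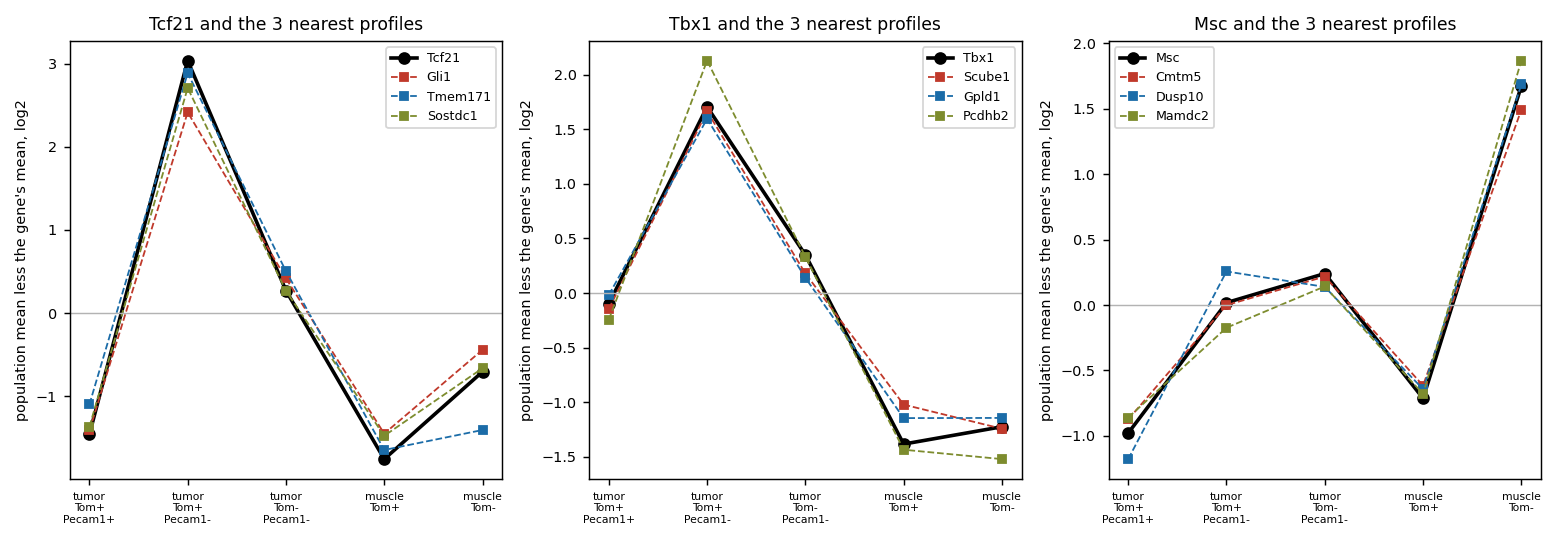
Population mean less the gene's mean over the 18 arrays (vertical axis, log2) of Tcf21, Tbx1 and Msc (black) and of the 3 genes nearest to each (colours) in the 5 populations (horizontal axis). Root mean square differences are 0.43 to 0.57 for Tcf21, 0.24 to 0.35 for Tbx1 and 0.21 to 0.25 for Msc. The peak is in tumor Tom+/Pecam1- cells for Tcf21 and Tbx1 and in muscle Tom- cells for Msc.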

How the data were processed

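Expression arrays of 18 sorted samples were analysed. Per the submitters' processing notes the deposited values were made with RMA and Partek. The deposited log2 intensities ran from 1.19 to 13.4 over 41345 probe sets with 0 missing. Per the labels' protocols RNA was amplified with a NuGen Ovation Pico kit. The genome build and annotation version behind the probe sets are not given in the sources used here. The number of arrays, not a read depth, limits the precision.

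Of the probe sets, 23521 have 1 gene symbol, 1814 several and 16010 none in the platform annotation, and those with 1 symbol name 22180 genes. For 1082 genes with several, the probe set with the highest mean was used. After centring on array medians, 16011 genes over the 40th percentile of their own array on at least 3 arrays were tested with limma 3.58.1 in R 4.3.3 (lmFit with 1 mean per population over all 18 arrays, eBayes, 13 residual and 3.9 prior degrees of freedom), with Benjamini-Hochberg adjustment over all tested genes and a threshold of 0.05. Since the tumor values hold no shared variation between repeats, these degrees of freedom are more than the values support. Python 3.11.15, pandas 2.3.3 and matplotlib 3.10.9 made the tables and figures. The fit was also run on simulated data with independent noise on every array. Such data have no equal repeat means, so that run does not check the p-values given here.

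The 8 genes, the gene lists and the alternatives were chosen with earlier results of these data known. Named genes were the 8, up to 3 genes of each list with the smallest adjusted p in a comparison, every gene where 5 or fewer passed, the 3 nearest profiles of a gene, and Pecam1, Pax7 and Gli1. Pax3, and Myod1 and Myf5 against muscle, were named after their values were seen. Sample titles give repeat numbers but state no pairing. In muscle, deviations of Tom+ and Tom- samples of the same number correlated at 0.24 to 0.26, against -0.16 to -0.09 for other numbers. In tumor this check was void (-0.70 to -0.21), because repeat means had been made equal. Alternatives were other filters, values as deposited, quantile normalization, the mean of probe sets, a trended and robust variance, fits of the compared groups, stricter thresholds, a replicate block, and leaving out arrays, the day 38 tumors, or muscle repeats 1 and 2. Promoter windows are RefSeq's, GRCm38.p6.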

Additional observations from a re-analysis of the deposited data

Results flagged for a closer look

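The difference that the Tom mark made in tumor minus the one it made in muscle passed the test for 5 of the 8 genes: 3.82 for Tcf21, 2.16 for Msc, 1.52 for Tbx1, 1.31 for Six2 and 0.62 for Isl1 (log2, limma). Muscle Tom+ cells carry endothelial markers and tumor Tom+/Pecam1- cells were gated against Pecam1. Tissue, SmoM2 genotype, age, strain and cell type therefore cannot be told apart in these values. Six2 in tumor Tom+/Pecam1+ cells had 1 array, repeat 4, far below the other 3 (5.20 against 5.53 to 5.59), with a gap of 0.854 of the group's range. Of 24 groups of 4 arrays, no other was past Dixon's 95% critical value. Chance alone puts about 1 in 20 groups of independent arrays past it. The tumor arrays are not independent, because the means of their repeats are equal: a low value in a population goes with higher ones in the others. Six2 repeat 4 was also the highest of the Tom-/Pecam1- arrays (6.83). Repeat 4 is the day 38 tumor, and without the day 38 tumors the Six2 difference between tumor Tom+/Pecam1+ and muscle Tom+ cells passed (0.36, limma adjusted p = 0.0263).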

How the results depend on the processing

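Of the values of single genes recomputed under all alternatives, 1018 kept their side of the threshold, 37 lost a call, 10 gained one and 1 called value reversed. The reversed value was Isl1 between tumor Tom+/Pecam1+ and muscle Tom+ cells, at 0.0229 on the values as deposited. A change of direction was counted only where a call was involved. Uncalled values that changed direction are among the 1018, such as Lhx2 for the mark in muscle (-0.22 to 0.10 on leaving out 1 array). The number of all genes called, 6303 for the mark in muscle, 4005 for the mark in tumor, 7055 for Pecam1 in tumor, 7545 for tumor Tom+/Pecam1- against muscle Tom- cells, 7796 for tumor Tom-/Pecam1- against muscle Tom- cells, 5482 for tumor Tom+/Pecam1+ against muscle Tom+ cells and 6247 for the tumor-minus-muscle difference, became 2436, 997, 2294, 1678, 1873, 737 and 3187 with a 2-fold minimum added. With muscle repeat 3 alone, where the spread comes only from the tumor arrays, the counts were 3621 for the mark in muscle, 4960 for tumor Tom+/Pecam1- against muscle Tom-, 2769 for tumor Tom+/Pecam1+ against muscle Tom+ and 3950 for the tumor-minus-muscle difference. At an adjusted p of 0.01, 2408 were called for the mark in tumor and 3309 for tumor Tom+/Pecam1+ against muscle Tom+. Of the 8 genes a 2-fold minimum left 5 for tumor Tom+/Pecam1- and 3 for tumor Tom-/Pecam1- against muscle Tom-. Values as deposited shifted the median of all genes by 0.34, 0.32 and 0.33 log2 in the 3 tumor-to-muscle comparisons, in the order above, made 84.2%, 83.5% and 90.5% of the called genes higher in tumor (51.2%, 48.8% and 45.8% centred), and called 8444 genes for tumor Tom+/Pecam1+ against muscle Tom+.

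Leaving out 1 array at a time gave 5498 to 5872 genes for the mark in muscle, 2805 to 3935 for the mark in tumor, 6318 to 6652 for Pecam1, 6588 to 6982, 6857 to 7562 and 4430 to 5150 for the 3 tumor-to-muscle comparisons and 5690 to 6290 for the tumor-minus-muscle difference. Of the 8 genes it left 3 to 4 of 4, 4 of 4, 6 of 6, 8 of 8, 5 to 7 (6 with all arrays), 2 to 3 of 3 and 5 of 5 called in the same order. With a replicate block, the paired fit, 5174 genes were called for the mark in muscle, 2678 for the mark in tumor, 5766 for Pecam1 and 4946 for the tumor-minus-muscle difference, and no call of the 8 genes changed. The adjusted p-values of the 8 genes were larger under the block. For the mark in muscle limma then gave 3.87e-07 instead of 1.76e-10 for Msc and 0.0456 instead of 0.0178 for Tcf21. For the mark in tumor it gave 0.000339 instead of 6.09e-06 for Tcf21. The cause of each change was not tested.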
